A study of Mus musculus with 6 samples.

Results

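The ephrin, semaphorin, Slit and netrin guidance genes were followed in cerebellar endothelial cells taken from mice at postnatal day 16. Beads carrying an antibody to PECAM, an adhesion molecule on the endothelial surface, had been used to purify the cells. The samples were 3 preparations from Fz4-/- mice, which lack Frizzled4 (the Fzd4 gene product, a receptor through which Norrin and Wnt signals act on endothelial cells), and 3 from wild type mice. Both genotypes were of mixed gender on a mixed C57Bl6/129 background, and the labels do not say whether a preparation pooled animals or which stretch of the gene is deleted. Each preparation was hybridised to 1 Affymetrix array, giving 6 arrays. The members were chosen by gene symbol, taking the Epha, Ephb, Efna, Efnb, class 3 to 7 semaphorin, plexin, Slit, Robo1 to Robo3, netrin, netrin-G, Unc5a, Unc5c and Unc5d genes that had a probe set assigned to that symbol alone. This gave 65 genes, of 18193 genes measured, with 143 probe sets between them, and the brightest of a gene's probe sets, by its average across all 6 arrays, stood for the gene. All values are log2 expression after RMA, and all differences are Fz4-/- minus wild type on that scale.

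Guidance cues were first described as signals that steer growing axons, and endothelial cells use the same ligands and receptors when vessels sprout, branch and acquire arterial or venous character. Ephrins are cell-bound ligands whose Eph receptors are tyrosine kinases, and signals pass into both touching cells. Semaphorins act through plexins, and the secreted class 3 members mostly need a neuropilin as co-receptor. Slits are secreted ligands of Robo receptors, and secreted netrins act through Dcc, neogenin and Unc5 receptors.

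Fzd4, the targeted gene, read 3.04, 4.03 and 4.0 on the Fz4-/- arrays, against 10.80, 10.20 and 10.88 on the wild-type arrays (limma adjusted p = 0.00965, and 0.127 with the replicate number as a block). The labels and the target therefore matched. Endothelial marker genes, 11 of the 12 listed being measured, averaged 11.83 to 11.95 on the Fz4-/- arrays and 11.63 to 11.75 on the wild-type arrays. RNA of other cells was present too. The mean over 10 pericyte and smooth muscle markers was 9.52, 10.88 and 11.01 on Fz4-/- replicates 1 to 3, against 10.77, 10.73 and 11.04 on the wild-type arrays. Fz4-/- replicate 1 stood apart, with means of 7.06 for 10 fibroblast and meningeal markers and 5.06 for 10 microglia and macrophage markers, where the other Fz4-/- arrays had 10.16 and 9.05, and 7.96 and 7.40, and the wild-type arrays 9.61 to 9.96 and 7.58 to 7.98. Choroid plexus epithelium markers, 8 of 10 measured, averaged 4.97 to 5.64 on Fz4-/- arrays. On wild-type replicates 1 to 3 they averaged 6.17, 5.98 and 8.45, replicate 3 standing far above the rest. The mean of the endothelial list was thus higher on every Fz4-/- array and highest on replicate 1. Of its 11 members, 8 differed above 0 and 3 below. Endothelial markers with an unadjusted limma p under 0.05 numbered 1 of 11, where 4.60% of all genes reached it. With the replicate block they numbered 5 of 11 (Pecam1, Cdh5, Tie1, Egfl7 and Emcn, all higher), where 8.89% of all genes did. In such bulk preparations fewer cells of a type and less RNA per cell cannot be told apart.

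No guidance gene passed the threshold of an adjusted p under 0.05 over all probe sets. The count was 0 of 65 in limma, where 0.0220% of all genes passed, and the lowest adjusted p among the members was 0.885. An unadjusted limma p under 0.05 was reached by 5 members (7.69%), where 4.60% of all genes reached it. These were Sema3f, Robo1 and Ntn1, which read higher in the Fz4-/- arrays, and Ntng2 and Sema3b, which read lower, where 2.34% of all genes reached it higher and 2.26% lower. The median difference of the 65 genes was -0.10, against 0.01 over all genes. Above 0 were 28 members and below it 37, where all genes had 9333 above and 8860 below. A difference of 1 or more in size was found for 5 of the 65, Sema3f, Robo1, Slit2, Sema5a and Ntng2 (the last near background), and for 2.11% of all genes, and one of 0.5 or more for 19, against 11.8%. The groups did not overlap for 10 members (15.4%), 5 higher and 5 lower in the Fz4-/- arrays, where 9.54% of all genes had groups without overlap, 4.59% higher and 4.95% lower. The higher members were Sema3f, Robo1, Ntn1, Plxna2 and Sema6d, and the lower ones Slit2, Ntng2, Sema3b, Robo3 and Ntng1. Robo1, Ntn1, Plxna2 and Sema6d read above the array median on all 6 arrays, and Sema3f and Slit2 on 5. Ntng2, Sema3b, Robo3 and Ntng1 were dim, above the array median on 0 arrays. Without Fz4-/- replicate 1 the counts were 6 at an unadjusted limma p under 0.05 (4.04% of all genes) and 15 without overlap (17.7%). With the replicate number as a block, 12 members had an unadjusted limma p under 0.05, 6 in each direction (18.5%), where 8.89% of all genes did, 4.56% higher and 4.33% lower, and 0 passed after adjustment. The 7 additions were Efna1, Sema4g and Sema6b, which read higher, and Slit2, Plxnb1, Unc5c and Sema5b, which read lower.

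**Figure D1:**
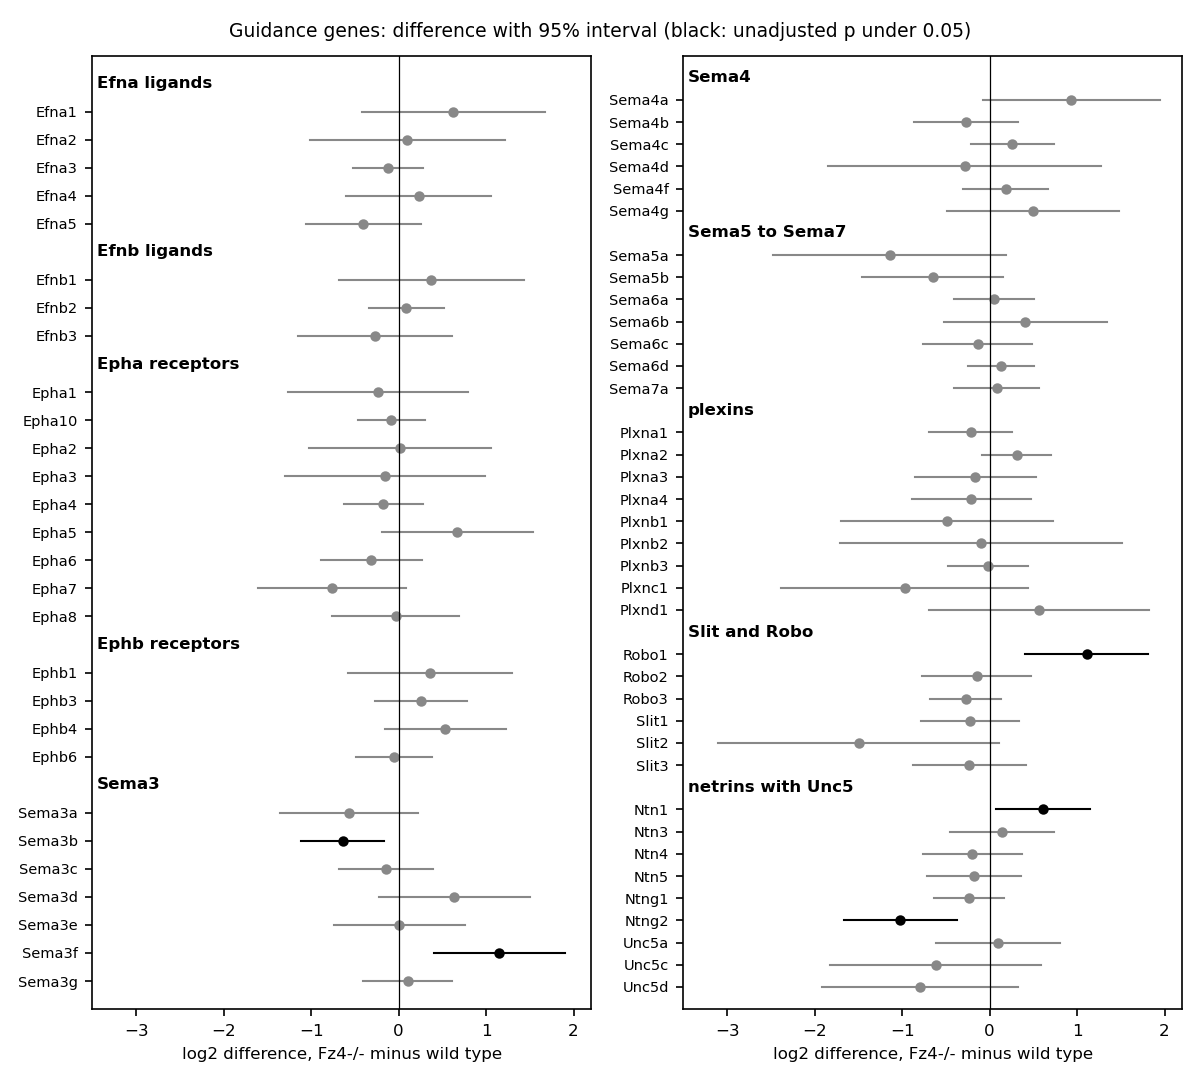
Difference in log2 RMA expression for each of the 65 guidance genes, Fz4-/- minus wild type, with the 95% interval from limma (n = 3 arrays a group), by family. Black marks the 5 genes with an unadjusted p under 0.05, Sema3f, Robo1 and Ntn1 to the right of 0 and Sema3b and Ntng2 to the left, and most other intervals cross 0 close to the middle.

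Class 3 semaphorins are secreted ligands, and Sema3f, which signals through neuropilin-2 and class A plexins, read higher in Fz4-/- at each of its 3 probe sets. Its brightest probe set read 7.48, 6.97 and 6.51 on the Fz4-/- arrays, against 5.94, 6.16 and 5.40 on the wild-type arrays. Every Fz4-/- array lay above every wild-type array. The means were 6.98 ± 0.49 in Fz4-/- and 5.83 ± 0.39 in wild type (SD, n = 3), a 2.22-fold difference (log2 difference 1.15, SE 0.32, 95% interval 0.40 to 1.90, limma adjusted p = 0.903). The second probe set read 6.52, 6.07 and 6.32 in Fz4-/- and 5.18, 5.02 and 5.76 in wild type (difference 0.99, limma adjusted p = 0.859). The third read 6.0, 5.90 and 6.02 in Fz4-/- and 4.55, 4.86 and 5.19 in wild type (difference 1.11, limma adjusted p = 0.571). All 3 probe sets thus had groups without overlap, higher in Fz4-/-, which held for 10 of the 4315 genes with 3 or more probe sets (0.232%) and for 1 of the 21 such guidance genes. Probe sets of a gene read the same RNA and are not replicates. By replicate number Sema3f differed by 1.54, 0.81 and 1.11. The difference was 0.90 without Fz4-/- replicate 1, the array lowest in pericyte, glial, microglial and fibroblast markers. The unadjusted p stayed under 0.05 in all 17 alternatives in which the gene was tested, and the adjusted p ranged from 0.307 to 1.

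**Figure D2:**
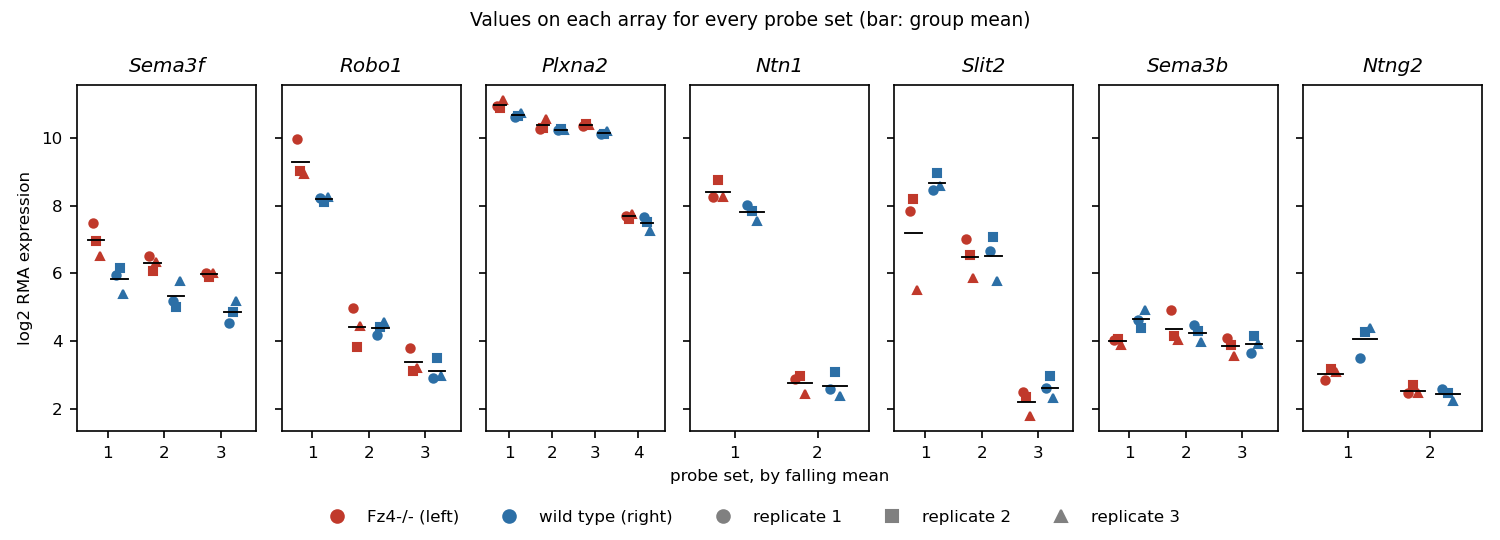
Log2 RMA expression on each array for every probe set of 7 guidance genes, numbered by falling mean, with Fz4-/- on the left and wild type on the right of each pair, the symbol giving the replicate number and the bar the group mean. The 3 Sema3f probe sets and the first 3 Plxna2 probe sets separate the genotypes, while for Robo1, Ntn1, Slit2, Sema3b and Ntng2 only the first does.

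Nrp2, the neuropilin that binds Sema3f and not itself among the 65 genes, read 11.31, 11.13 and 10.82 in Fz4-/- and 10.76, 10.83 and 10.45 in wild type. Its groups overlapped at a single array, Fz4-/- replicate 3 lying below wild-type replicate 2 (difference 0.41, SE 0.21, limma adjusted p = 1, and 0.562 with the replicate block). Nrp1, the other neuropilin, differed by 0.13 without overlap (SE 0.16, 95% interval -0.26 to 0.51).

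The other class 3 genes did not share the pattern of Sema3f. Sema3b, which lies near Sema3f on chromosome 9 with 3 protein-coding genes between them in the RefSeq table of GRCm38.p6, read 4.04, 4.07 and 3.89 in Fz4-/- and 4.63, 4.38 and 4.91 in wild type. It was lower on every Fz4-/- array (difference -0.64, SE 0.20, limma adjusted p = 0.995). Another Sema3b probe set of almost the same mean differed by 0.12 with overlapping groups, so the sign rests on the choice of probe set, and the mean of the gene's 3 probe sets differed by -0.19. Sema3c, a ligand that binds both neuropilins, read 11.63, 11.47 and 11.22 in Fz4-/- and 11.80, 11.73 and 11.22 in wild type (difference -0.14, 95% interval -0.68 to 0.40). Sema3g, known from endothelial cells of arteries, differed by 0.10 (95% interval -0.40 to 0.61). Both read above the array medians on all 6 arrays, and their intervals lay within 1 unit on either side of 0. Sema3e, the ligand of plexin-D1, read 5.32 ± 0.43 in Fz4-/- and 5.31 ± 0.45 in wild type (SD, n = 3). Sema3a (-0.57) and Sema3d (0.64), neighbours on chromosome 5 with no protein-coding gene between them, had overlapping groups and 95% intervals that held 0.

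Among the membrane-bound semaphorins, Sema4a had the largest positive difference. It read 5.29, 6.45 and 6.86 in Fz4-/- and 5.45, 4.84 and 5.5 in wild type. Fz4-/- replicate 1 lay among the wild-type arrays and the other 2 above them (difference 0.94, SE 0.42), and its other probe set differed by 1.00. The difference of Sema4a was 1.39 without Fz4-/- replicate 1, where its unadjusted limma p was under 0.05, and 0.61 without Fz4-/- replicate 3, where it was not. Sema4d, a ligand of plexin-B1 found on many immune and neural cells, read 7.82, 9.74 and 8.18 in Fz4-/- and 9.49, 9.42 and 7.70 in wild type, a spread within each genotype larger than the difference of -0.29. Sema4c, a plexin-B2 ligand, differed by 0.26 (95% interval -0.22 to 0.73). Sema6d, a transmembrane ligand of plexin-A1, read 11.29, 11.34 and 11.39 in Fz4-/- and 11.27, 11.23 and 11.12 in wild type, without overlap but with a difference of only 0.13. Sema7a, which is held in the membrane by a lipid anchor and binds plexin-C1 and integrins, differed by 0.08 (95% interval -0.41 to 0.57). Both class 5 genes read lower on Fz4-/- replicate 1 than on any other array. Sema5a read 4.47 there, 6.04 and 6.84 on the other Fz4-/- arrays, and 6.97, 6.74 and 7.07 in wild type.

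Among the plexins, the semaphorin receptors, 7 of 9 read below 0, as did 8860 of all 18193 genes, with a median of -0.16. The 7 include Plxnb3 (-0.02) and Plxnb2 (-0.10), both close to 0. An unadjusted limma p under 0.05 was reached by 0 of the 9 (4.60% of all genes), and by Plxnb1 with the replicate block (8.89% of all genes). Plxna2, a receptor for class 3 and class 6 semaphorins, read 10.95, 10.87 and 11.11 in Fz4-/- and 10.61, 10.65 and 10.74 in wild type. Its Fz4-/- arrays all lay above its wild-type arrays, by a small margin (difference 0.31, SE 0.17, 95% interval -0.09 to 0.71). Of its 4 probe sets, 3 had groups without overlap and all 4 read higher in Fz4-/-. At least 3 such probe sets were found for 26 of the 4315 genes with 3 or more (0.603%), among the members for Plxna2 and Sema3f. Plxnd1, the plexin that endothelial cells are best known for, read 10.97, 9.64 and 11.19 in Fz4-/- and 9.70, 9.49 and 10.92 in wild type. Both arrays numbered 3 were high and Fz4-/- replicate 1 was high with them, and the difference of 0.57 had a 95% interval of -0.69 to 1.82 and was 0.27 without Fz4-/- replicate 3 and 1.05 without Fz4-/- replicate 2. Plxnc1, the Sema7a receptor, read 4.70, 6.95 and 5.92 in Fz4-/- and 7.29, 7.09 and 6.10 in wild type, and without Fz4-/- replicate 1 its difference moved to -0.39, from -0.97 with all arrays. Its second probe set, dimmer at a mean of 4.56, differed by 0.05, and the other 4 read lower in Fz4-/-.

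Slit and Robo genes held both a large positive and the largest negative difference. Robo1, a Slit receptor, read 9.96, 9.02 and 8.93 in Fz4-/- and 8.22, 8.11 and 8.25 in wild type. The wild-type arrays lay close together and every Fz4-/- array above them. The means were 9.30 ± 0.57 in Fz4-/- and 8.19 ± 0.07 in wild type (SD, n = 3), a 2.16-fold difference (log2 difference 1.11, SE 0.30, 95% interval 0.41 to 1.82, limma adjusted p = 0.885). The difference was 1.74, 0.91 and 0.68 by replicate number and 0.78 without Fz4-/- replicate 1. The endothelial marker mean was also higher on every Fz4-/- array, at 11.95, 11.83 and 11.86, against 11.63, 11.64 and 11.75 in wild type. Of the 11 markers, 8 differed above 0 and 3 below. Robo1 and the list mean were both highest on Fz4-/- replicate 1. The part of the endothelial markers in the values of Robo1, Plxna2, Ntn1 and Sema3f, all higher on every Fz4-/- array, was not tested. The unadjusted p of Robo1 stayed under 0.05 in 17 of 18 alternatives, the exception being the mean of its 3 probe sets (difference 0.47). Its other 2 probe sets differed by 0.04 and 0.25 with overlapping groups. Robo2, adjacent to Robo1 on chromosome 16, read below the lower quartile on all 6 arrays, where a difference (here -0.15) cannot be read. Robo3, a divergent Robo receptor of commissural neurons, differed by -0.27, without overlap (95% interval -0.68 to 0.13).

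Slit2, a ligand of Robo1, read 7.83, 8.20 and 5.5 in Fz4-/- and 8.47, 8.98 and 8.59 in wild type. All Fz4-/- arrays lay below the wild-type arrays, and replicate 3 was far below the rest. The difference of -1.50 was the largest in size of the 65 genes, yet its SE was 0.68 (95% interval -3.11 to 0.11, limma adjusted p = 1, and 0.564 with the replicate block). Without Fz4-/- replicate 3 the difference was -0.66, and without Fz4-/- replicate 2 it was -2.01. The second Slit2 probe set did not separate the genotypes (difference -0.02). On Fz4-/- replicate 3 the fibroblast and meningeal markers averaged 9.05 and the choroid plexus markers 5.28, against 9.61 to 9.96 and 5.98 to 8.45 in wild type. On Fz4-/- replicate 1 both lists were lower still, at 7.06 and 4.97, while Slit2 read 7.83. The part of such cells in the Slit2 values was not tested. Slit1 (-0.22) and Slit3 (-0.23) had overlapping groups.

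Promoters of 300 bases around the annotated starts were read for 56 of the 65 genes, 72 promoters in all, from RefSeq sequence of build GRCm38.p6. They were rich in G and C, with a median of 64.0% and 18.5 CG dinucleotides a promoter, against 52.7% and 7 over the 32851 promoters in the table. The motif CTTTGAT on either strand, a core recognised by the Tcf/Lef factors through which Frizzled receptors can act, was in 0 of the 72 promoters (a count of 0 allows a share of up to 4.17%) and in 3.73% of all promoters. The motif CCGGAAG, of the kind bound by Ets factors, was in 2 of the 72 (2.78%), those of Ephb6 and Plxnb1, and in 8.86% of all. These matches describe the letters in short windows and say nothing of binding. Of the 5 members with an unadjusted p under 0.05, Robo1 and Ntng2 had a promoter in the table. Both promoters are printed for that reason, with CG dinucleotides in capitals, 15 in Robo1 (chr16:72662899-72663198, plus strand) and 6 in Ntng2 (chr2:29248050-29248349, minus strand).
Robo1: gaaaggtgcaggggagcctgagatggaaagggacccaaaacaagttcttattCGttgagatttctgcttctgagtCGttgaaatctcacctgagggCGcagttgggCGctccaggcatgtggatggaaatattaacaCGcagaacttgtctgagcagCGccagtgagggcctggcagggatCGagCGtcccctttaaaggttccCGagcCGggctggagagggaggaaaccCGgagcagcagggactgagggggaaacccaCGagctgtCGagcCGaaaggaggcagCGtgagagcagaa
Ntng2: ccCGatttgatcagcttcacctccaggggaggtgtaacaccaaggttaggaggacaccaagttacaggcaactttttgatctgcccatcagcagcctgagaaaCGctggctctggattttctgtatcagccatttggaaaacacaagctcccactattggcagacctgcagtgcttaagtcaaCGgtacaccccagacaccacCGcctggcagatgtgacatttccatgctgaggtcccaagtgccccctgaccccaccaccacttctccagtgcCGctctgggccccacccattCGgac

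Of the 6 netrin and netrin-G genes, 2 differed above 0 and 4 below. Ntn1, netrin-1, read 8.25, 8.75 and 8.24 in Fz4-/- and 8.02, 7.84 and 7.55 in wild type. The groups did not overlap, though the margin to wild-type replicate 1 was narrow. The difference was 0.61 (SE 0.23, 95% interval 0.07 to 1.15, limma adjusted p = 1), and its unadjusted p stayed under 0.05 in 11 of 18 alternatives. Ntng2, netrin-G2, which sits on the membrane of neurons, read 2.84, 3.18 and 3.08 in Fz4-/- and 3.51, 4.26 and 4.39 in wild type (difference -1.02, SE 0.27, limma adjusted p = 0.885). All 3 Fz4-/- values and that of wild-type replicate 1 lay under the lower quartiles of their arrays, so the size of the difference is uncertain and the gene is not shown to lie above background on those 4 arrays. Its other probe set differed by 0.12. Ntn4, a netrin of vascular basement membranes that binds laminin, read 8.0, 8.68 and 8.65 in Fz4-/- and 8.72, 8.47 and 8.73 in wild type (difference -0.20, 95% interval -0.77 to 0.37). The receptor Unc5c read 4.10, 4.13 and 5.53 in Fz4-/- and 4.69, 4.87 and 6.04 in wild type, lower by 0.60, 0.74 and 0.51 by replicate number. With the replicate block that difference of -0.62 reached an unadjusted limma p under 0.05, with an adjusted p of 0.486.

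Of the 21 ephrin and Eph receptor genes, 0 had an unadjusted limma p under 0.05 (4.60% of all genes) and 0 had groups without overlap (9.54% of all genes), too few genes to set against those shares. Efnb2, the ephrin of arterial endothelium, read 11.54, 11.36 and 11.41 in Fz4-/- and 11.45, 11.46 and 11.13 in wild type. The difference of 0.09 had a 95% interval of -0.34 to 0.52. Ephb4, its receptor on venous endothelium, read 9.40, 9.21 and 9.44 in Fz4-/- and 8.53, 8.47 and 9.45 in wild type. Wild-type replicate 3 reached the Fz4-/- level while the other 2 lay below it (difference 0.54, SE 0.29), and without that array the difference was 0.85.

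Efna1, the ligand that Epha2 on endothelial cells responds to, read 9.72, 9.78 and 10.62 in Fz4-/- and 8.96, 8.96 and 10.32 in wild type. The arrays numbered 3 were the highest of each genotype, and the Fz4-/- array of each number lay above its wild-type counterpart, by 0.77, 0.81 and 0.30. The difference of 0.63 (SE 0.44, limma adjusted p = 1) reached an unadjusted p under 0.05 with the block (adjusted p = 0.524), and was 0.34 without Fz4-/- replicate 3 and 1.08 without wild-type replicate 3. The other Efna1 probe set read 8.14, 7.99 and 7.70 in Fz4-/- and 7.25, 7.52 and 7.69 in wild type, without overlap but with Fz4-/- and wild-type replicate 3 almost level (difference 0.46). Epha2 itself read 9.22, 9.60 and 8.31 in Fz4-/- and 9.24, 9.53 and 8.31 in wild type, so that arrays of the same number were almost level. Its difference was 0.02 (95% interval -1.02 to 1.05), and its sign turned under quantile normalization, cyclic loess, array weights and 3 of the 6 single arrays left out.

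Efna2, another ligand of Epha receptors, read 8.22, 9.86 and 8.33 in Fz4-/- and 9.0, 8.87 and 8.24 in wild type, its one high array being Fz4-/- replicate 2 (difference 0.10, and -0.43 without that array). Efnb1, a ligand of Ephb receptors, read 9.04, 8.36 and 7.34 in Fz4-/- and 8.14, 8.06 and 7.42 in wild type (difference 0.38, and -0.0224 without Fz4-/- replicate 1 to 0.83 without Fz4-/- replicate 3). Its second probe set read 8.05, 7.77 and 7.71 in Fz4-/- and 7.02, 7.19 and 7.19 in wild type. There the groups did not overlap (difference 0.71, SE 0.18, limma adjusted p = 0.85), and the third probe set differed by 0.33 with overlapping groups. Epha4, a receptor for both ephrin classes, read 10.37 ± 0.12 in Fz4-/- and 10.54 ± 0.22 in wild type (SD, n = 3), and all 5 of its probe sets read lower in Fz4-/-, by 0.17 at the brightest. Ephb1, a receptor of the Efnb ligands, differed by 0.36 with overlapping groups.

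Several members differed more between replicate numbers than between genotypes. On both arrays numbered 3, 7 members read above the other 4 arrays (10.8%, against 21.6% of all genes) and 10 below them (15.4%, against 18.1%). Plxnb2, a receptor of class 4 semaphorins, read 9.14 and 9.27 on the arrays numbered 3 of Fz4-/- and wild type, 8.14 and 8.08 on those numbered 2, and 7.0 and 7.21 on those numbered 1. Its genotypes differed by -0.10, while the arrays numbered 3 exceeded the other 4 by 1.6. Plxnb1 (1.28), Unc5c (1.34), Efna1 (1.12) and Sema4g (1.01) were likewise higher on the arrays numbered 3, and Epha2 (-1.09), Epha1 (-1.07), Efnb1 (-1.02) and Sema6b (-0.95) lower. The labels give no date or batch for these numbers. Without both arrays numbered 3, Sema3f differed by 1.17, Robo1 by 1.33 and Slit2 by -0.70, and 11 members had an unadjusted limma p under 0.05 (8.23% of all genes) and 32 had groups without overlap (40.9%).

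**Figure D3:**
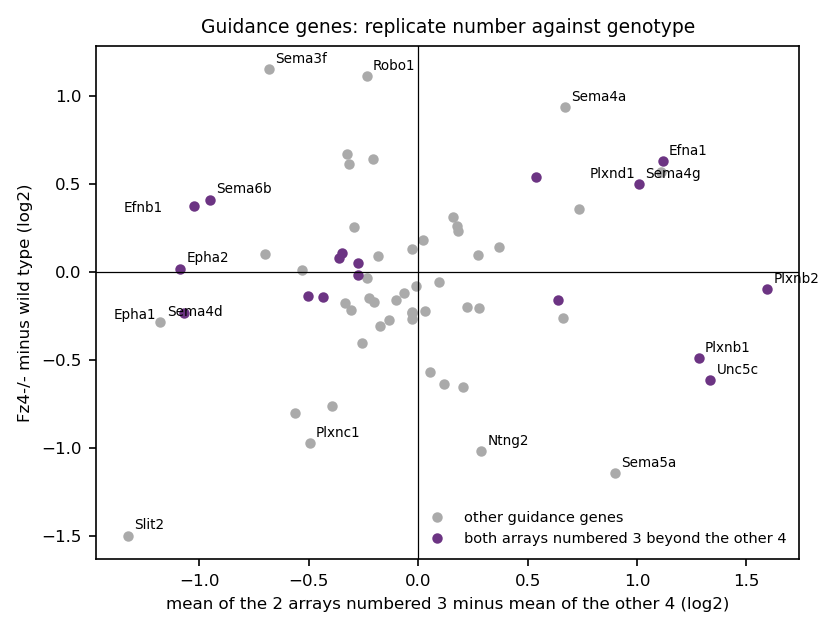
Each point is 1 of the 65 guidance genes, with the mean of the 2 arrays numbered 3 minus the mean of the other 4 on the horizontal axis and Fz4-/- minus wild type on the vertical axis, both in log2 units. Purple points are the 17 genes for which both arrays numbered 3 lie beyond the other 4. Plxnb2 lies farthest right at 1.6 with a genotype difference of -0.10, while Robo1 and Sema3f lie highest, at -0.24 and -0.68 on the horizontal axis.

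Fz4-/- replicate 1 weighed most on a pair of members. It read at least 1 unit below every other array for 2 members, Sema5a and Plxnc1 (3.08%), a share near the 2.31% of all genes. Both were picked by that low value. Sema5a differed by -1.14 with all arrays and by -0.49 without that array. Its second probe set read 5.53, 6.47 and 6.81 in Fz4-/- and 6.17, 6.31 and 6.69 in wild type, lowest on the same array. The second Plxnc1 probe set was not lowest there. On that array the astrocyte and Bergmann glia markers averaged 7.23, against 9.02 and 8.90 on the other Fz4-/- arrays and 8.59 to 9.33 in wild type, and the microglia and macrophage markers averaged 5.06, against 7.96 and 7.40 on the other Fz4-/- arrays and 7.58 to 7.98 in wild type. The part of these cells in the Sema5a and Plxnc1 values was not tested. Robo1 and Sema3f ran the other way, with their highest value on that array.

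**Figure D4:**
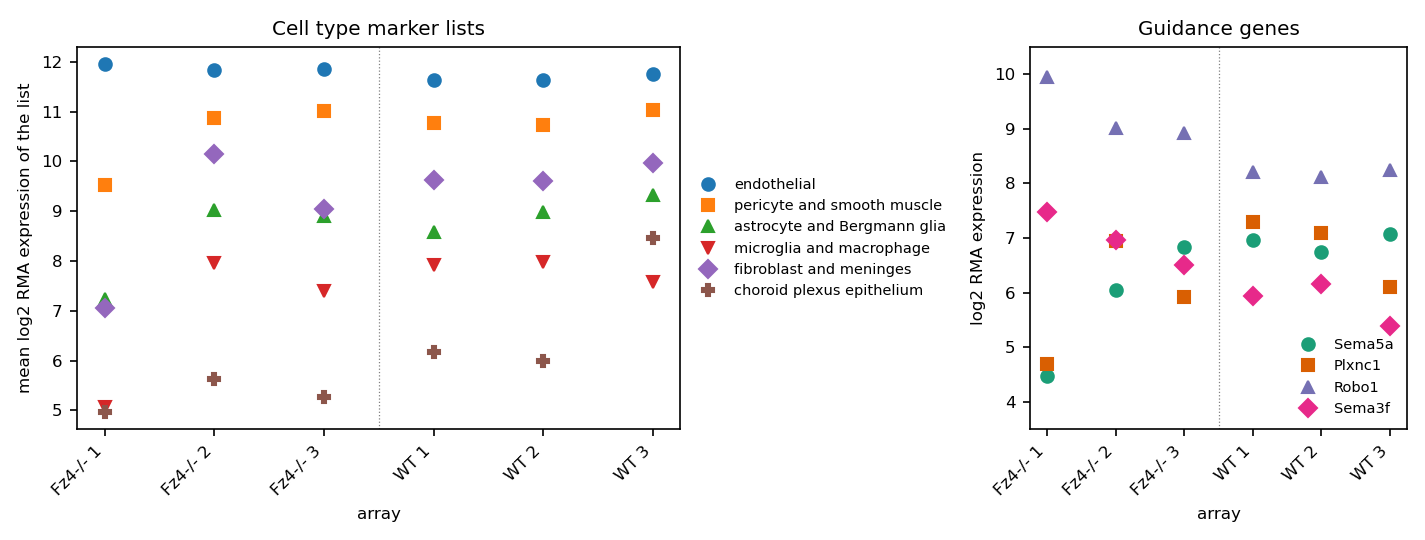
Left, mean log2 RMA expression of 6 cell type marker lists on each of the 6 arrays. Right, log2 RMA expression of Sema5a, Plxnc1, Robo1 and Sema3f on the same arrays, Fz4-/- to the left of wild type. Endothelial markers stay between 11.63 and 11.95, whereas pericyte, glial, microglial and fibroblast markers are lowest on Fz4-/- replicate 1. Sema5a and Plxnc1 were drawn because they read lowest on that array, so their low value there is no separate result.

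Of 52 listed co-receptors and intracellular effectors of guidance signals, 50 were measured, with a median difference of 0.01. None passed over all probe sets, and 3 had an unadjusted limma p under 0.05 (6%, close to the 4.60% of all genes), 2 higher and 1 lower. Vav3, which acts below Eph receptors, read 7.77, 7.79 and 7.54 in Fz4-/- and 6.69, 6.89 and 6.70 in wild type. The groups lay well apart (difference 0.93, SE 0.17, limma adjusted p = 0.533), and its other 2 probe sets read higher in Fz4-/- as well. Ablim3, an actin-binding LIM protein, read 9.17, 9.20 and 9.66 in Fz4-/- and 8.03, 8.66 and 7.79 in wild type (difference 1.18, SE 0.28, limma adjusted p = 0.781). Flrt2, a membrane protein that binds Unc5 receptors, read 9.69, 9.60 and 9.33 in Fz4-/- and 10.05, 10.03 and 10.08 in wild type, lower on every Fz4-/- array (difference -0.52, SE 0.18, limma adjusted p = 1). The netrin receptors Dcc (0.23) and Neo1 (-0.25) and the endothelial receptors Robo4 (0.26) and Unc5b (-0.01) had overlapping groups.

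How large a difference could have been missed varied by gene. The 95% interval lay within 1 unit of 0, that is within a doubling or halving, for 32 of 65 members (49.2%), where 67.4% of all genes had such an interval. Above the array median on all 6 arrays were 27 members, as were 53.6% of all genes. The interval lay within 1 unit of 0 for 13 of these 27, a smaller share than the 71.0% of all genes above the median. Efnb2, Epha4, Sema3c, Sema3g, Sema6a, Sema6d, Sema7a and Plxna2 were among the 13. For the other 14, which include Ephb4, Plxnd1, Plxnb2, Epha2 and Sema4d, differences of more than that size are not excluded by these 6 arrays. Epha6, Robo2 and Sema4f read under the lower quartile on all 6 arrays, where RMA compresses differences.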

How the data were processed

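The deposited values are log2 expression per probe set from RMA, per the submitters' processing notes. RMA subtracts background, brings the arrays to 1 shared distribution and condenses the probes of a set into 1 value, and it compresses differences near background. The labels name no implementation or version. A depth per sample does not apply to arrays, and their number limits the precision. Array medians were 5.52 to 5.58. Of 45101 probe sets, 64 controls were left out and 45037 tested. Names came from the platform annotation, where 34945 probe sets carried 1 symbol, 932 several and 9160 none, and all 65 members matched the RefSeq gene table.

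Groups were compared in limma 3.58.1 (R 4.3.3), with lmFit and eBayes and no variance trend, on all 6 arrays, two-sided, with Benjamini-Hochberg adjustment over the 45037 probe sets. Nothing in the labels says that samples of a group came from separate animals, so p-values reflect a spread that may be technical. The members and lists were chosen with earlier results of these data known. The rule for named genes took Fzd4, members with an unadjusted p under 0.05, members without overlap and a difference of at least 0.5, the 2 brightest of each family, and up to 3 genes per list with such a p. Other genes were picked for mention with their values known. Of the cell type lists, each with 0 members past the threshold, median differences not given elsewhere were 0.20 for endothelial, -0.33 for pericyte and smooth muscle, -0.67 for astrocyte and Bergmann glia, -1.01 for microglia and macrophage, -1.03 for fibroblast and meninges, -1.62 for choroid plexus, -0.22 for granule neuron, -0.26 for Purkinje cell, -0.03 for oligodendrocyte, -0.43 for platelet and -0.31 for red cell genes. Without Fz4-/- replicate 1 the medians were 0.07 for astrocyte and Bergmann glia, 0.03 for microglia and macrophage, -0.13 for fibroblast and meninges, -0.05 for pericyte and smooth muscle and 0.05 for granule neuron genes, so those shifts rest on that array. Choroid plexus kept -1.55, but its list averaged 8.45 on wild-type replicate 3, against 6.17 and 5.98 on wild-type replicates 1 and 2. Members of these lists with an unadjusted limma p under 0.05 were Tie1 (0.49), Hopx (-0.78), Sox9 (-0.65), Mrc1 (-2.07), Fmod (-1.74), Ttr (-2.48), Otx2 (-1.50), Folr1 (-1.81), Grin2c (-0.46), Foxp2 (-0.61) and Sox10 (-0.50).

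Replicates are numbered 1 to 3 in each genotype. Their deviations around the genotype means correlated at 0.244, 0.303 and 0.574 for the same numbers, above the minimum of 0.1 for pairing. Unlike numbers also passed it, at 0.124 and 0.262. Wild-type replicate 1 correlated more with Fz4-/- replicate 2 (0.262) than with Fz4-/- replicate 1 (0.244). The block follows the numbers in the labels, which state no pairing, and the pairing of numbers 1 and 2 is uncertain. The block was fitted as an alternative and its values stand beside the members' results it changes. No array was a copy of another, since any pair shared 0.351% of identical values at most. Other alternatives were 3 normalizations, 2 filters on dim probe sets, a robust variance trend, array weights, other choices of probe set, each array left out and an adjusted p of 0.1. Leaving out both arrays numbered 3, and a term for them, were added after seeing the data. The main limma model, without block or array weights, was tried on simulated arrays with known changes, and the other fits were not. Figures were drawn with matplotlib 3.10.9.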

Additional observations from a re-analysis of the deposited data

How the results depend on the processing

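No guidance gene passed an adjusted p of 0.05 in limma under any alternative run, nor at 0.1, where 0 of 65 passed. The count over all genes was 4 and became 12 with array weights, 0 with the replicate block and without both arrays numbered 3, and 1 with a term for those arrays, and 0 to 2 with 1 array left out. Members with an unadjusted p under 0.05 numbered 5 with all arrays, 3 and 2 among probe sets above the median level and above log2 of 100, where 33 and 26 members remained, 11 with array weights, 12 with the replicate block, 11 without both arrays numbered 3 and 11 with a term for them, and 5 to 10 with 1 array left out. Members without overlap numbered 10 (9.54% of all genes), then 6 and 5 under those filters (8.83% and 8.52%), and 6 when probe sets of a gene were averaged (9.90%). They numbered 32 without both arrays numbered 3 (40.9%), where 2 arrays face 2. With 1 array left out they numbered 14 to 25 (14.3% to 29.5%), since smaller groups overlap less. The members' median of -0.10 became 0.0906 and 0.0853 under the filters, which remove dim members, -0.0167 without both arrays numbered 3, and -0.118 to -0.0310 with 1 array left out. Fzd4 kept a difference of -7.15 to -6.61 with 1 array left out, and its adjusted p missed 0.05 with the block (-6.94), without both arrays numbered 3 (-6.96) and without Fz4-/- replicate 2 or 3 or wild-type replicate 1 or 2. Of 670 values of 38 named genes under alternatives, 646 kept their sign and side of the threshold and 18 changed sign. Epha2 read -0.0193 under quantile normalization, -0.0408 under cyclic loess and -0.12 with array weights, and Efnb2 -0.00388 without both arrays numbered 3. With 1 array left out, signs turned for Efna2 (-0.429 to 0.392), Efnb1 (-0.0224 to 0.829), Efnb2 (-0.0185 to 0.148), Epha2 (-0.342 to 0.384), Ephb1 (-0.0338 to 0.764), Ntn4 (-0.316 to 0.0236), Sema3g (-0.0426 to 0.235), Sema4d (-0.871 to 0.0941) and Sema7a (-0.0337 to 0.208). The precision of every value is limited by 3 arrays a group and, for members near the lower quartile, by signal close to background. The cause of these shifts was not tested.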
